A study of Mus musculus with 4 samples.

Results

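The nuclei described here are those of the right ventricle (RV) that carried transcripts of lymphatic endothelium, and 301 were found among 48428 nuclei that passed the filters, of 53090 barcodes in all. A nucleus was taken if it had at least 200 genes, under 10% mitochondrial transcripts and Ryr2 at under 1% of its unique molecular identifiers (UMIs, each counting 1 transcript). It also needed at least 3 UMIs over Mmrn1, Reln, Flt4 and Ccl21a, with at least 1 of Mmrn1 or Reln, and no more than 1 UMI over Pdgfra, Pdgfrb and Mrc1, genes of fibroblasts, mural cells and macrophages. The members were thus chosen by their own transcripts, and the levels of those genes are given only as a description. All mice were wild type (WT) and of strain C57/BL6J, operated on at postnatal day 7 (P7), and RV nuclei were taken at P21. RV volume overload (RVVO) was made by a fistula between the abdominal aorta and the inferior vena cava, and sham mice had the same operation without the puncture. There were 2 sham and 2 RVVO libraries, named sham 1, sham 2, RVVO 1 and RVVO 2, and every run of 4 values below has this order. How many mice went into a library is not stated, so p-values measure the spread between these libraries, which may be partly technical.

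Lymphatic endothelial cells line the vessels that drain fluid and immune cells from tissue. PROX1, a homeobox transcription factor, sets and keeps their identity, and VEGFR3, the product of Flt4, receives the growth signal VEGFC. Reln and Mmrn1 encode secreted proteins, and Ccl21a encodes a chemokine that guides dendritic cells into lymphatic capillaries. In the heart, lymphatic vessels are densest below the epicardium and follow the coronary vessels inwards.

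Members numbered 84, 76, 77 and 64 in the 4 libraries. Their UMIs added up to 331298, 235546, 385649 and 256693, with a median of 3312.5, 2967, 4644 and 3235 per nucleus, so that RVVO 1 was the deepest per nucleus. As the nearest comparison, 13693 other endothelial nuclei were taken, with at least 3 UMIs over Pecam1, Cdh5, Flt1, Kdr, Emcn and Egfl7, no UMI of Mmrn1 or Reln, and otherwise the same filters. They numbered 4510, 4483, 1969 and 2731, with a median of 2169.5, 1922, 2988 and 2642 UMIs. Within them, 1045 nuclei with at least 2 UMIs of Npr3 are called endocardial, 532 with at least 2 of Vwf and none of Npr3 vein-like, and the other 12116 capillary-type. Endocardial nuclei made up 5.12%, 4.48%, 11.4% and 14.2% of the class by library and vein-like nuclei 2.71%, 3.10%, 6.25% and 5.42%, so that both were a larger share in RVVO than in sham. A high doublet score was given to 10, 4, 4 and 7 members, and any pair of libraries shared between 28 and 70 barcode sequences.

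Of the 4 transcripts in the rule, Reln was found in 87.4% of members and Mmrn1 in 74.8%. Both were present in 187 nuclei, Mmrn1 without Reln in 38 and Reln without Mmrn1 in 76. All 4 transcripts were found in 70 nuclei, 3 of them in 106, 2 in 83 and a single one in 42. The median member had 6, 5, 11 and 7 UMIs of the 4 genes together, highest in the deepest library. Nuclei with exactly 3 such UMIs, just inside the threshold, numbered 13, 18, 7 and 6, and a Prox1 transcript was found in 61.5%, 38.9%, 57.1% and 50% of them. Just outside it, 38, 27, 18 and 18 nuclei with 2 such UMIs met the other conditions, and 13.2%, 22.2%, 27.8% and 16.7% of these had Prox1.

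Prox1 was not used to choose the members, and it was found in 225 of the 301, or 75.0%, 67.1%, 81.8% and 75.0% by library. After each nucleus was thinned to 1000 UMIs, the share with Prox1 was 56.0%, 43.2%, 64.9% and 62.5%. Among other endothelial nuclei, thinned alike, it was 2.73%, 2.78%, 2.87% and 3.37%, taken here as the background of these libraries. Cardiomyocyte (CM) nuclei, a cell type known to transcribe Prox1, reached 8.31%, 8.40%, 10.0% and 11.1%. Of 20 genes known from lymphatic endothelium that the rule did not use, Prox1 among them, at least 3 were found in 267 members (88.7%), and 4 members had none. Without Prox1, at least 3 of the other 19 were found in 84.5%, 80.3%, 93.5% and 90.6% of members and in 28.0%, 21.3%, 42.9% and 43.6% of other endothelial nuclei. After thinning to 1000 UMIs, the shares were 50%, 56.8%, 62.3% and 65.6% of members and 5.17%, 4.50%, 8.55% and 8.24% of other endothelial nuclei. Both measures thus stood above those of other endothelial nuclei in every library, although a group of members described next carried few of these transcripts.

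A group of 29 members carried glial transcripts, defined after the values were seen as at least 2 UMIs over a list of 7 genes of Schwann cells, among them Cdh19, Gfra3, Kcna1, Sox10 and S100b. They numbered 8, 10, 5 and 6 by library. Reln was found in 28 of these 29 nuclei, Mmrn1 in 1, Flt4 in 3, Prox1 in 2 and Pecam1 in 10. They met the rule almost wholly through Reln, and 7 of the 29 had a high doublet score. For the cadherin gene Cdh19, 97.2% of the UMIs in members lay in these 29 nuclei, and for Csmd1, chosen after its values were seen, 99.6%. Glial transcripts summed to 435, 548, 174 and 436 CPM (UMIs of a gene relative to all UMIs summed over the class in that library, on the usual CPM scale) in members, against 37.9, 35.0, 33.6 and 25.0 CPM in other endothelial nuclei. Without these 29 nuclei the mean of Cdh19 was 7.01 in place of 219 CPM, and that of Prox1 was 1408 in place of 1271 CPM. The rest of the members comprised 223 nuclei with Prox1 and 49 without it, and in the 49 a transcript of Mmrn1 was found in 34, of Reln in 41 and of Piezo2 in 26. The 49 nuclei had a median of 2577 UMIs against 3705 in the 223. Flt1, a receptor of blood vessels, was at 1696, 176, 771 and 120 CPM by library in the 49, against 261, 168, 186 and 356 CPM in the 223. The higher level rested mainly on sham 1, which held 101 of the 132 UMIs of Flt1 in the 49, and RVVO 2 had the opposite order. Whether other endothelial nuclei are among these 49 was not tested.

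**Figure D1:**
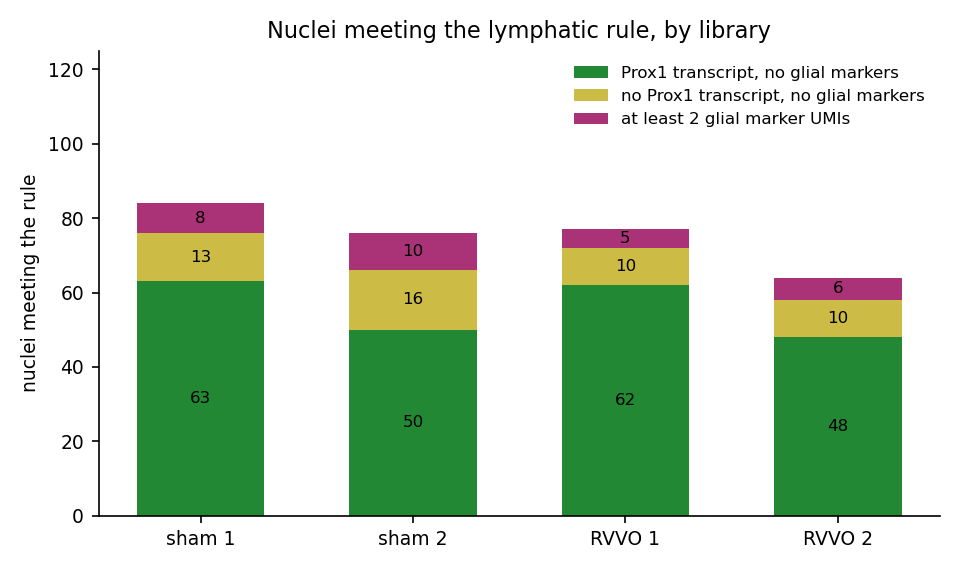
Stacked bars give the number of nuclei that met the rule in each library (vertical axis, nuclei), divided into those with a Prox1 transcript and no glial markers, those with neither, and those with at least 2 glial marker UMIs. The 3 groups hold 223, 49 and 29 nuclei, and the glial group is present in every library with 5 to 10 nuclei.

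CM transcripts were present in every member, since at least 2 UMIs of 13 CM markers were found in 301 of 301. Their sum was 25460, 16078, 20008 and 23596 CPM, against 35193, 23820, 30067 and 29913 CPM in other endothelial nuclei, with Myh6 the most abundant. Macrophage markers were rare, at a sum of 57.4, 119, 137 and 187 CPM over 10 genes with Cd68 at 0. Fibroblast markers summed to 1002, 1388, 1076 and 1422 CPM over 10 genes, against 1094, 1434, 1554 and 1996 CPM in other endothelial nuclei. Mural cell markers, led by Rgs5, summed to 323, 221, 169 and 280.5 CPM, and mesothelial markers, led by Wt1 and with Krt8 at 0, to 51.3, 59.4, 112 and 203 CPM. Among the lymphocyte and erythroid markers, Ms4a1, Cd3e, Cd3d, Skap1 and Nkg7 were at 0, and the sum was 1757, 2369, 2837 and 1687 CPM. These transcripts were part of every sum below, and their part in the results was not tested.

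The sequences upstream of 4 genes are shown because their transcripts define the class, with Prox1 as the identity factor, Reln and Ccl21a as secreted products used by the rule, and Tc2n as the gene with the largest difference from other endothelial nuclei among those named outside the rule. Each is the run of 250 bases before the RefSeq start, on GRCm38.p6 and the minus strand, at chr1:190170828-190171077 (Prox1), chr5:22344706-22344955 (Reln), chr4:42773992-42774241 (Ccl21a) and chr12:101718524-101718773 (Tc2n). In the GENCODE vM21 annotation of GRCm38, the Prox1 gene lies at chr1:190118035-190170714 and Tc2n at chr12:101645443-101718523. Capitals mark matches to GGGCGG, the GC box, and in Ccl21a to CAGGAA, an ETS-type core.
Prox1: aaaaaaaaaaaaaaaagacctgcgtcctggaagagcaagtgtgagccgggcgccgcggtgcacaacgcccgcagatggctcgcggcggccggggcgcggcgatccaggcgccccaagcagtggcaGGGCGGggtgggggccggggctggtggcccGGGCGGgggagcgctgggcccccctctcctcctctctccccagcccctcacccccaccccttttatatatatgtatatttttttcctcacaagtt
Reln: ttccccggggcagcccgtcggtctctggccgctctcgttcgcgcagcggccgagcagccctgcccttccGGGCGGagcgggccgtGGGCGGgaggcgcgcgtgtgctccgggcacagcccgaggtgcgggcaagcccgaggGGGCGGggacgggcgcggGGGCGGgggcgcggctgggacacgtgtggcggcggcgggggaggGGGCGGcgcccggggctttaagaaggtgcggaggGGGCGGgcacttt
Ccl21a: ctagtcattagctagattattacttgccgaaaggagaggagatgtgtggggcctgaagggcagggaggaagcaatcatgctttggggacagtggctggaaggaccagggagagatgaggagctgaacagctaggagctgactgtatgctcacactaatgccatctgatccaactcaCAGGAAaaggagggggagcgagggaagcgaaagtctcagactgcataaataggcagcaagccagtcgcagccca
Tc2n: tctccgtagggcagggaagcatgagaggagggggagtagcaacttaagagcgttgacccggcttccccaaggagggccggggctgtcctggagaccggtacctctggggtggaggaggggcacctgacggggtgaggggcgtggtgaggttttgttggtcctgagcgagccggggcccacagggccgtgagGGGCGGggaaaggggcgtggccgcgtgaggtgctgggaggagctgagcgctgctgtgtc
The windows differ in their letters, with 6 GC boxes in Reln, 2 in Prox1 and 1 in Tc2n. Ccl21a holds none but has an ETS-type core that begins 74 bases before its start. Both strands were searched for 3 motifs over 32851 windows of 250 bases. A GC box was in 32.7% of all windows and in 13 of 21 windows of 14 lymphatic genes (61.9%). CAGGAA was in 25.7% of all windows and in 6 of the 21. AACAAT, a SOX-type core, was in 9.42% of all windows and in 2 of the 21. Such matches describe letters only.

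Against the other endothelial nuclei, 3009 of 12645 genes (23.8%) had an adjusted p under 0.05 in edgeR with the library as a block, 1348 higher (10.7%) and 1661 lower (13.1%) in lymphatic nuclei. Since the nuclei had been chosen by transcripts, these counts describe the class and no test is drawn from them. In what follows, "higher" and "lower" refer to genes past this threshold, with the log2 difference ± its SE. The median difference over all genes was -0.05. The 23 genes of largest difference kept their direction in every fit under other settings. Their side of the threshold was kept in 413 of these fits and lost in 1, that of Efr3b against endocardial nuclei alone.

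Several transcription factors differed between the classes. Prox1 was at 1105, 1282, 1548 and 1149 CPM against 31.0, 28.5, 33.2 and 45.2 CPM in other endothelial nuclei, with no overlap between the classes, and the log2 difference was 5.12 ± 0.14. Tbx1, a T-box factor needed for lymphatic growth, was at 66.4, 102, 64.8 and 70.1 CPM against 0.142 to 0.493 CPM (7.58 ± 0.45). The homeobox gene Hoxd4 was at 46.7 to 77.8 CPM against 0.855 to 2.57 CPM (5.07 ± 0.41). Maf, a leucine zipper factor, was at 314, 357, 425 and 471 CPM against 23.9 to 45.7 CPM (3.40 ± 0.13). Maf was also abundant in macrophage nuclei, at a mean of 442 CPM, and so does not set lymphatic nuclei apart from these. Nr2f2, the venous factor that acts with PROX1, was at 281 to 423 CPM against 59.1 to 86.6 CPM (2.17 ± 0.12). Gata2, a zinc finger factor, went the other way, at 24.1 to 46.7 CPM in lymphatic and 51.9 to 63.8 CPM in other endothelial nuclei (-0.82 ± 0.23). Sox18, which acts upstream of Prox1 in the embryo, overlapped between the classes at 18.1, 59.4, 18.2 and 39.0 CPM against 35.8 to 63.2 CPM. In the list of lymphatic identity genes outside the rule, 19 of 20 genes were tested, 16 higher and 1 lower, at a median of 2.37. Over all genes tested, 10.7% were higher and 13.1% lower.

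Among genes outside the rule and found in at least 20% of lymphatic nuclei, the largest difference was in Tc2n, which encodes a C2 domain protein. It was at 637, 951, 731 and 771 CPM in lymphatic nuclei and at 3.45, 4.77, 1.85 and 1.86 CPM in the others (7.89 ± 0.18). A transcript was found in 60.1% of members and in 0.708% of other endothelial nuclei, and none of the Tc2n UMIs lay in the 29 nuclei with glial transcripts. Piezo2, a stretch-gated ion channel, was at 851, 849, 705 and 654 CPM against 14.7 to 20.02 CPM (5.42 ± 0.13). Its relative Piezo1, the channel through which endothelium senses flow, was at 263, 331, 355 and 269 CPM against 152 to 219 CPM (0.75 ± 0.12). Celsr1, a planar polarity cadherin of lymphatic valves, was at 90.6, 93.4, 90.8 and 97.4 CPM, almost level over the libraries, against 2.71 to 4.15 CPM (4.74 ± 0.29).

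Others of the 15 largest differences fall into a few roles. The sodium channel gene Scn3a was at 779, 577, 423 and 304 CPM against 12.2 to 14.8 CPM (5.17 ± 0.16). Dtx1, a ubiquitin ligase that acts on Notch, was at 223, 250.5, 272 and 226 CPM against 0.765 to 2.14 CPM (7.33 ± 0.24). Pard6g, of the PAR cell polarity complex, was at 454 to 628 CPM against 10.3 to 15.1 CPM (5.30 ± 0.14). These genes were abundant in lymphatic and low in other endothelial nuclei, and lowest there for Dtx1. Sh3gl3, an endophilin of vesicle traffic, was at 121 to 263 CPM against 0.763 to 1.40 CPM (7.34 ± 0.30). Apba2, an adaptor of the amyloid precursor protein, differed by 6.55 ± 0.26, and Sgsm1, a regulator of small GTPases, by 6.17 ± 0.30. The complement regulator Susd4 was at 89.6 to 207 CPM against 2.14 to 5.13 CPM (5.40 ± 0.26). Matrix proteins were represented by Emid1 (5.47 ± 0.27) and Adamtsl1 (4.71 ± 0.12), the latter at 579.5, 921, 718 and 857 CPM against 17.9 to 36.7 CPM. In each of the 15 genes the lowest lymphatic library stood above the highest library of the other class.

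**Figure D2:**
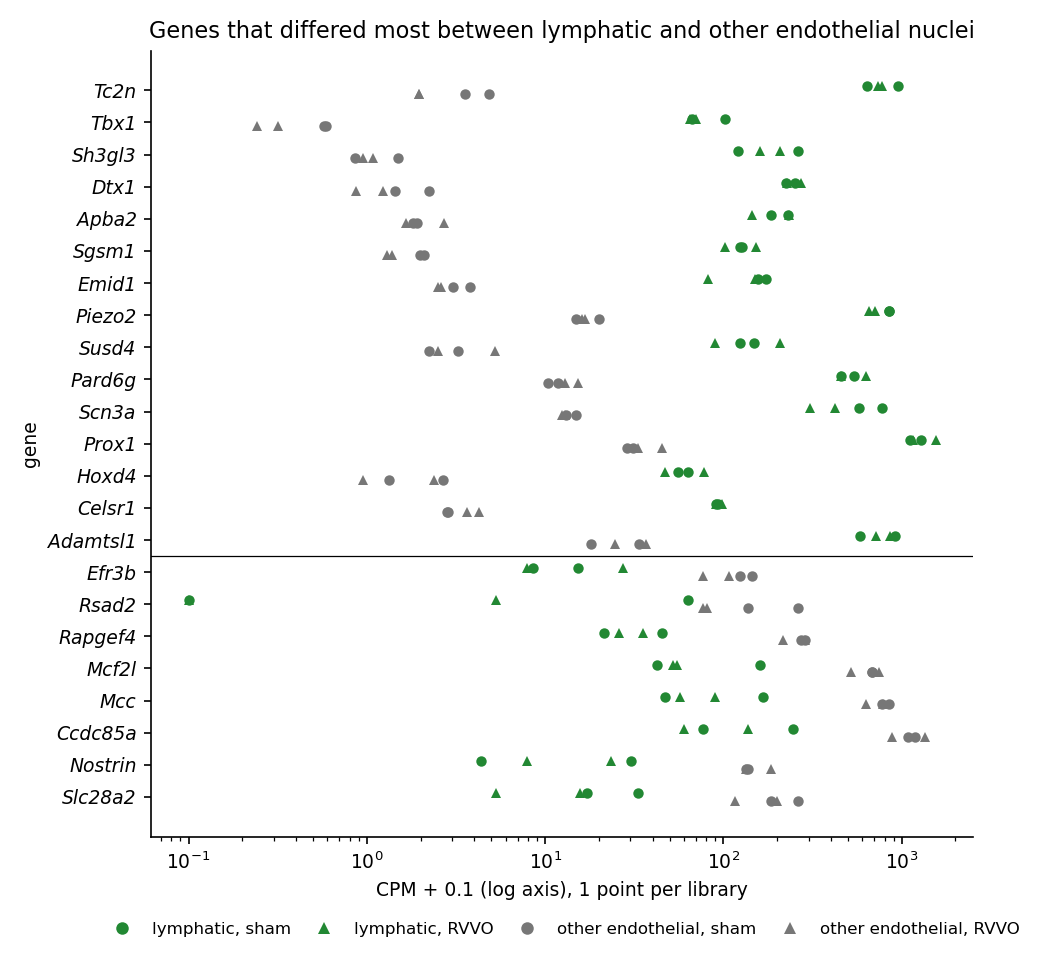
Each row is a gene and each point 1 library, with the level as CPM + 0.1 on a log axis, green for lymphatic and grey for other endothelial nuclei, circles for sham and triangles for RVVO. The 15 genes above the line are higher in lymphatic nuclei in every library, Tc2n most of all, and the 8 below it are lower in every library, with Rsad2 at 0 UMIs in the lymphatic nuclei of sham 2 and RVVO 2.

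Genes of blood endothelium were lower. In that list, 17 of 18 genes were tested, 2 higher and 14 lower, at a median of -2.15, beside 10.7% and 13.1% of all genes. Flt1, a decoy receptor of VEGFA, was at 519, 199.5, 246 and 312 CPM against 1956, 2524, 2292 and 1477 CPM, but it was among the genes that chose the other class. Cd36 and Fabp4, which take up and carry fatty acids in capillaries, differed by -2.15 ± 0.12 and -2.18 ± 0.12. Efnb2, which arteries share with lymphatic valves, went the other way at 350.1, 289, 423 and 229.8 CPM against 167 to 211 CPM (0.63 ± 0.13). Mecom, a zinc finger factor counted with the pan-endothelial genes, was at 465, 132, 228 and 417 CPM against 1233 to 1765 CPM (-2.46 ± 0.20). The 8 genes with the largest differences downwards were Slc28a2, a nucleoside transporter (-3.53 ± 0.26), Nostrin, which binds nitric oxide synthase (-3.27 ± 0.28), Ccdc85a (-3.25 ± 0.22), Mcc (-3.19 ± 0.18), the exchange factor Mcf2l (-3.19 ± 0.20), the cAMP-activated Rapgef4 (-3.15 ± 0.19), Rsad2, an antiviral gene of the interferon response (-3.09 ± 0.32), and Efr3b (-3.07 ± 0.29), which was not called against endocardial nuclei alone (-1.14). Sham 1 was the highest lymphatic library for 7 of these 8, the exception being Efr3b. In the pan-endothelial list, counted without the genes that chose either class, 11 of 16 genes were tested, 1 higher and 8 lower, at a median of -0.70, and the tight junction gene Cldn5 was the one that was higher.

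Receptors and ligands of lymphatic growth were divided. The counts of each list here stand beside 10.7% higher and 13.1% lower over all genes tested. Some, such as the lower count of the adrenomedullin list, are near those shares. In the list of VEGFC and VEGFR3 signalling, 19 of 21 genes were tested, 3 higher and 6 lower, at a median of -0.11. Nrp2, the co-receptor of VEGFR3, was at 769.7, 594, 793 and 752 CPM against 322 to 461 CPM (0.83 ± 0.11). Nrp1, the co-receptor of VEGFR2, was at 211, 123, 127 and 132 CPM against 795 to 997 CPM (-2.70 ± 0.14). The pair of co-receptors thus differed in opposite directions. Ptpn14, a phosphatase that acts on VEGFR3, differed by 1.27 ± 0.12. The ligand Vegfc was counted in 13, 3, 13 and 6 UMIs of members, lower than in other endothelial nuclei (-2.03 ± 0.24). Flt4, which the rule used, was at 417, 582, 443 and 397 CPM. In the angiopoietin and Tie list, 8 of 9 genes were tested, 2 higher and 4 lower, at a median of -0.48. Angpt2, a ligand of the TIE2 receptor that acts on lymphatic vessels, was at 129.8, 72.2, 70.0 and 70.1 CPM against 21.9 to 29.7 CPM (1.69 ± 0.22), Foxo1 differed by 1.14 ± 0.12, and Tek, the receptor gene, by -0.56 ± 0.11. In the adrenomedullin list, 8 of 8 genes were tested, 2 higher and 1 lower, at a median of 0.20, with Calcrl, the receptor, at 0.42 ± 0.11 and its partner Ramp3 counted in 3 UMIs of sham 1 alone.

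In the list of lymphatic valves and collectors, 17 of 17 genes were tested, 9 higher and 3 lower, at a median of 1.03. The shares over all genes tested were 10.7% and 13.1%. Nfatc1, the calcium-driven factor of valve formation, was at 311, 433, 451 and 366 CPM against 52.0 to 69.3 CPM (2.53 ± 0.12). Itga9, the integrin of valve leaflets, was at 570.5, 645, 843 and 674 CPM against 105 to 187 CPM (2.13 ± 0.11), and its ligand Fn1 was at 287, 369, 324 and 199 CPM against 62.2 to 117 CPM (1.79 ± 0.17). Cldn11, a claudin of valves, was counted in 3, 8, 19 and 8 UMIs (4.97 ± 0.51). Foxc2, the forkhead factor of collecting vessels, was rare, at 3, 6, 4 and 5 UMIs (3.17 ± 0.56). Genes of both initial and collecting lymphatics were thus found. Lyve1, a hyaluronan receptor of initial lymphatics, was found in 30.9% of members and 2.95% of other endothelial nuclei. Ccl21a has near-identical copies in the mouse genome, and its counts, all under 1 identifier, are uncertain to that extent.

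In the leukocyte traffic list, 21 of 24 genes were tested, 8 higher and 6 lower, at a median of -0.02. This count and those of the next 2 lists stand beside 10.7% higher and 13.1% lower over all genes. The secreted guidance cue Sema3d was at 676, 667, 840.1 and 725 CPM against 22.6 to 53.7 CPM (4.22 ± 0.14), and Sema3a was at 226, 471, 335 and 479 CPM against 15.4 to 45.9 CPM (3.69 ± 0.19). Il7, a survival factor for lymphocytes, was at 63.4, 93.4, 49.3 and 58.4 CPM against 2.85 to 7.87 CPM (3.75 ± 0.32), and Spns2, which exports sphingosine 1-phosphate, differed by 1.02 ± 0.16. Cxcl12, Vcam1 and Icam1, which blood vessels use to attract and hold leukocytes, were lower, with Cxcl12 at -3.03, Icam1 at -1.82 and Vcam1 at 6.04 to 23.4 CPM against 35.8 to 81.0 CPM. In the junction list, 14 of 16 genes were tested, 4 higher and 6 lower, at a median of -0.17, with Jam2 at -3.03 ± 0.22 and Pvrl2 at 2.08 ± 0.20. In the matrix and adhesion list, 22 of 24 genes were tested, 6 higher and 8 lower, at a median of -0.26. Its laminin gene Lama4 was at 1072, 1320, 1309 and 1157 CPM against 315 to 383 CPM (1.74 ± 0.11), and its collagen gene Col4a1 was at 549, 479.7, 298 and 292 CPM against 537 to 861 CPM (-0.88 ± 0.12), so that components of the basement membrane split.

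Several signalling lists held genes of both directions. Over all genes tested, 10.7% were higher and 13.1% lower, and the number of higher genes in the Notch list is near that share. In the Notch list, 14 of 14 genes were tested, 2 higher and 4 lower, at a median of -0.52, with Maml2 (0.92) and Notch2 (1.09) higher and Notch4 (-2.32) and Jag2 (-2.19) among the lower. In the TGF-beta and BMP list, 19 of 20 genes were tested, 6 higher and 8 lower, at a median of -0.38. The receptor Tgfbr2 (1.25) and ligand Tgfb2 (1.59) were higher, and the inhibitors Smad6 (-2.61) and Smad7 (-2.28) and the ligand Bmp6 (-2.19) lower. In the mechanosensing and Hippo list, 19 of 19 genes were tested, 5 higher and 5 lower, at a median of -0.03, and Klf2, a factor induced by shear stress, was at 78.5, 72.2, 72.6 and 89.6 CPM against 176 to 249.7 CPM (-1.54 ± 0.16). The genes called were all lower in the lists of metabolism, interferon and stress, as they also were among markers of cardiomyocytes, mural cells, mesothelium and lymphocytes or erythroid cells. For fatty acid and mitochondrial metabolism, 18 of 18 genes were tested, 0 higher and 11 lower, at a median of -0.51. Beside it, for CM markers, 12 of 13 genes were tested, 0 higher and 12 lower, at a median of -0.60, and their part in the metabolic difference was not tested. For interferon and antigen presentation, 18 of 18 genes were tested, 0 higher and 14 lower, at a median of -1.09, with H2-K1, a class I antigen-presenting molecule, at 190.2, 267, 135 and 242 CPM against 368 to 611 CPM (-1.48 ± 0.13). For immediate early and stress genes, 12 of 13 genes were tested, 0 higher and 4 lower, at a median of -0.61. For the cell cycle the calls went the other way, and 15 of 24 genes were tested, 11 higher and 0 lower, at a median of 2.09. Of the UMIs of the list in members, 74.9% lay in 12 nuclei described below, which numbered 1, 0, 5 and 6 by library. In sham 2 the summed level was lower in lymphatic than in other endothelial nuclei, at 67.9 against 83.9 CPM. The class difference thus rests mainly on the RVVO libraries.

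**Figure D3:**
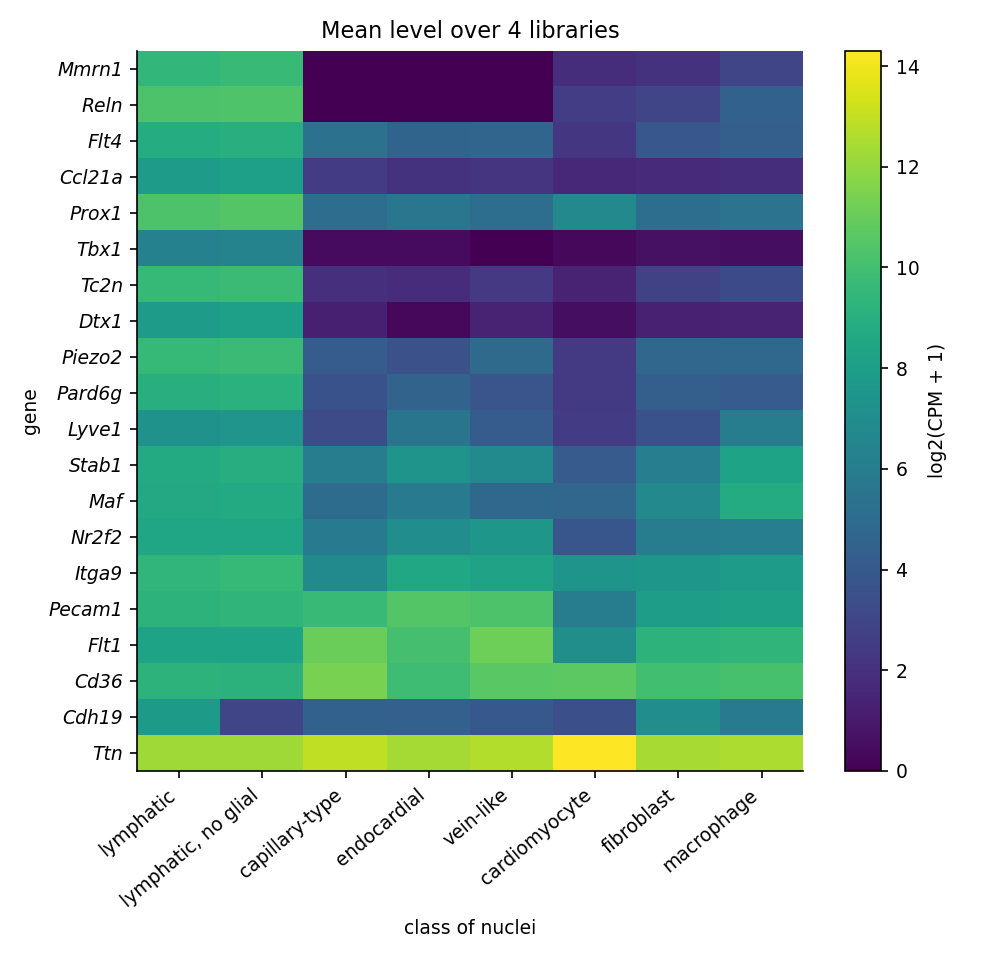
The mean level over 4 libraries is shown as log2(CPM + 1) by colour for 20 genes (vertical axis) in 8 classes of nuclei (horizontal axis), the lymphatic class with and without the nuclei that carry glial markers. Prox1, Tc2n, Tbx1 and Piezo2 are highest in the lymphatic columns, Maf and Stab1 are high in macrophages too, Prox1 reaches 104 CPM in cardiomyocytes, and Cdh19 is at 7.01 CPM once the glial nuclei are left out.

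How RVVO changed the number of these nuclei was the next question. They made up 0.647%, 0.522%, 0.934% and 0.507% of all nuclei that passed, with exact 95% intervals of 0.516 to 0.80, 0.411 to 0.653, 0.738 to 1.17 and 0.390 to 0.646. The means were 0.584% ± 0.0885 in sham and 0.720% ± 0.302 in RVVO (SD, n = 2 each), and the groups overlapped, since RVVO 1 was the highest and RVVO 2 the lowest. An exact two-sided permutation test gave p = 1. Without RVVO 1 the difference of 0.136 percentage points became -0.0779. It was 0.0770 with at least 2 and 0.227 with at least 5 marker UMIs, and 0.0855 without nuclei with cell cycle genes. The groups overlapped under each of these rules, but sham 2 was the lowest library with at least 5 marker UMIs, with Prox1 required or without the nuclei with glial markers. Of endothelial nuclei alone, members were 1.83%, 1.67%, 3.76% and 2.29%, or 1.75% ± 0.114 in sham and 3.03% ± 1.04 in RVVO, where both RVVO libraries stood above both sham libraries. The exact permutation test gave p = 0.33, the smallest that 2 libraries against 2 can give. The difference of 1.28 percentage points became 0.542 without RVVO 1 and 2.02 without RVVO 2. Other endothelial nuclei were a smaller share of the RVVO libraries, 23.9% and 21.6% against 34.7% and 30.8%, so a change in the denominator and a change in lymphatic nuclei cannot be told apart. Fewer cells of a type and a lower yield of its nuclei cannot be told apart either.

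For gene levels, counts were summed per library over the members, and 5688 genes were tested. edgeR called 5 of them (0.0879%) after adjustment, with a larger level in RVVO for 3 (0.0527%) and a smaller one for 2 (0.0352%), and each of the 5 lies on a sex chromosome. Xist, the RNA that silences an X chromosome in females, was counted in 648, 412, 0 and 0 UMIs, and was at least 400.4-fold lower in RVVO against a floor of 3 counts over the group. Its antisense partner Tsix was at 269, 217, 2.59 and 3.90 CPM (log2 -6.11 ± 0.48, adjusted p = 0.00031 by edgeR). Counting is not stated to use strand, so reads of this pair cannot be fully told apart. The Y-linked genes Uty (0, 0, 114 and 66 UMIs, at least 52.9-fold) and Eif2s3y (0, 0, 36 and 34 UMIs, at least 20.6-fold) were higher in RVVO, as was Ddx3y (0, 1, 42 and 27 UMIs, log2 5.62 ± 0.72). The sham libraries thus held female and the RVVO libraries male transcripts, so every comparison of RVVO with sham is also one of male with female, and these cannot be told apart. Without an adjustment 280 genes (4.92%) had p under 0.05 in the same edgeR fit, 147 of them higher (2.58%) and 133 lower (2.34%) in RVVO.

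No marker of lymphatic identity outside the rule passed the threshold between the groups. Prox1 had a sham mean of 1193 ± 125.4 and an RVVO mean of 1349 ± 282 CPM (SD, n = 2 each), a log2 difference of 0.18 ± 0.23. Of 20 identity genes, 16 passed the filter and none was called, at a median of 0.18 against 0.0038 over all genes. Of the 16, 5 did not overlap between the groups with RVVO higher and 1 with RVVO lower, beside 16.3% and 16.0% of all tested genes. Maf, at the values given above, was among the 5, and the scavenger receptor gene Stab1, at 465, 492, 392 and 355 CPM, was the other. No gene was called in the lists of VEGFC signalling (15 tested of 20), valves (9 of 17), junctions (13 of 16), leukocyte traffic (11 of 23), mechanosensing (17 of 19), Notch (7 of 14), TGF-beta (18 of 20), matrix (17 of 22) or fatty acid metabolism (15 of 18), and their medians lay between -0.12 and 0.16. The genes of the rule (Flt4, Ccl21a, Reln and Mmrn1) were left out of these counts and medians.

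The summed level of interferon genes was lower in RVVO, with no single gene past the threshold. Their sum over 18 genes was 1509, 1477, 695 and 1200 CPM in lymphatic nuclei and 3322, 3081, 1521 and 2292 CPM in the others, so that both RVVO libraries stood below both sham libraries in each class. Of the 11 genes that passed the filter, 5 did not overlap with RVVO lower and 1 with RVVO higher, beside 16.0% and 16.3% of all tested genes, none was called by edgeR, and the median was -0.43. H2-K1 and B2m, of class I antigen presentation and the most abundant of the list, overlapped between the groups. The other members described here were chosen after their values were seen. Stat2, which carries the signal of type I interferon into the nucleus, was at 217, 174, 41.5 and 66.2 CPM (log2 -1.91 ± 0.33, edgeR adjusted p = 0.098). It passed the threshold in 4 of the 9 alternative fits with another tool, minimum count, depth or set of nuclei. Ifi44, an interferon-induced gene, was at 72.4, 50.9, 15.6 and 7.79 CPM. It passed the count filter only through sham, where it is high, so no fold change of it is given. The count of 5 genes without overlap and the median of -0.43 include Ifi44, which gives them no support. Bst2 (121, 76.4, 36.3 and 54.5 CPM, -1.17 ± 0.40) and Irf9 (99.6, 46.7, 23.3 and 35.1 CPM, -1.40 ± 0.49) had their highest value in sham 1 and did not overlap between the groups. Outside the list, Rnf213, an interferon-induced ubiquitin ligase, was at 359, 344, 83.0 and 156 CPM (-1.60 ± 0.30, edgeR adjusted p = 0.14), and F830016B08Rik was at 447, 199.5, 49.3 and 74.0 CPM (-2.45 ± 0.41, edgeR adjusted p = 0.091). Of the same 9 alternative fits, Rnf213 passed the threshold in 5 and F830016B08Rik in 8, DESeq2 among them. Their levels in other endothelial nuclei were also lower in both RVVO libraries, with Rnf213 at 586, 499, 199 and 229.8 CPM.

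The sorting protein gene Snx17, likewise chosen after its values were seen, was at 27.2, 4.25, 109 and 179 CPM in lymphatic and 19.8, 14.8, 94.0 and 121 CPM in other endothelial nuclei. Snx17 passed the count filter of the main fit only through RVVO, where it is high, so no fold change or test of it is given. Pcdh15, a protocadherin also chosen afterwards, was at 6.04, 4.25, 62.2 and 62.3 CPM, but its UMIs lay in 10 nuclei, with 19 in a single one.

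Cell cycle genes were carried by a few nuclei, most of them from RVVO. The 24 genes of the list summed to 175, 67.9, 487 and 686 CPM in lymphatic nuclei, and to 101, 83.9, 88.2 and 109 CPM in other endothelial nuclei. Top2a, the topoisomerase of dividing cells and the most abundant of the list, was counted in 7, 0, 30 and 30 UMIs. Mki67, which encodes the proliferation marker Ki-67, was counted in 6, 0, 24 and 19 UMIs, and the mitotic motor Kif11 in 1, 0, 18 and 9. Both RVVO libraries were above both sham libraries in CPM for these 3 genes. Since 19 of the 24 genes did not pass the filter, and genes rare in sham pass it through RVVO, no fold change, test or count over the list is given.

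At least 10 UMIs of the list, a limit set after the values were seen, were found in 12 members. They numbered 1, 0, 5 and 6, or 1.19%, 0%, 6.49% and 9.38% of the members of each library, with exact 95% intervals of 0.0301 to 6.46 in sham 1, 0 to 4.74 in sham 2, 2.14 to 14.5 in RVVO 1 and 3.52 to 19.3 in RVVO 2. For the 0 of 76 nuclei in sham 2, the limit of 3 counts, which is a one-sided approximation, is 3.95%, below the upper bound of that two-sided interval. Among other endothelial nuclei the shares were 0.266%, 0.112%, 0.254% and 0.330%. After thinning to 1000 UMIs, a different limit of at least 3 UMIs of the list was used. It was met by 1 of 84, 0 of 74, 4 of 77 and 6 of 64 members. Among other endothelial nuclei it was met by 0.380%, 0.152%, 0.256% and 0.293%. Nuclei that met this limit need not be those that met the first. The smallest p that an exact permutation test of 2 libraries against 2 can reach is 0.33, so this difference cannot pass 0.05.

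Of lymphatic genes that the rule did not use, Prox1 was found in 11 of these 12 nuclei and Tc2n in 10. None had a high doublet score and none carried glial markers. Top2a was found in all 12, Mki67 in 9 and Diaph3, a formin chosen after its values were seen, in 12. Top2a and Mki67 belong to the list that chose these nuclei. Their presence, like the share of the list's UMIs given below, was largely fixed by that choice. Their median depth was 4949.5 UMIs against 3485 in other members. They made up 5.71% of the UMIs of all members and held 74.9% of the UMIs of the cell cycle list, 328 of 438.

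**Figure D4:**
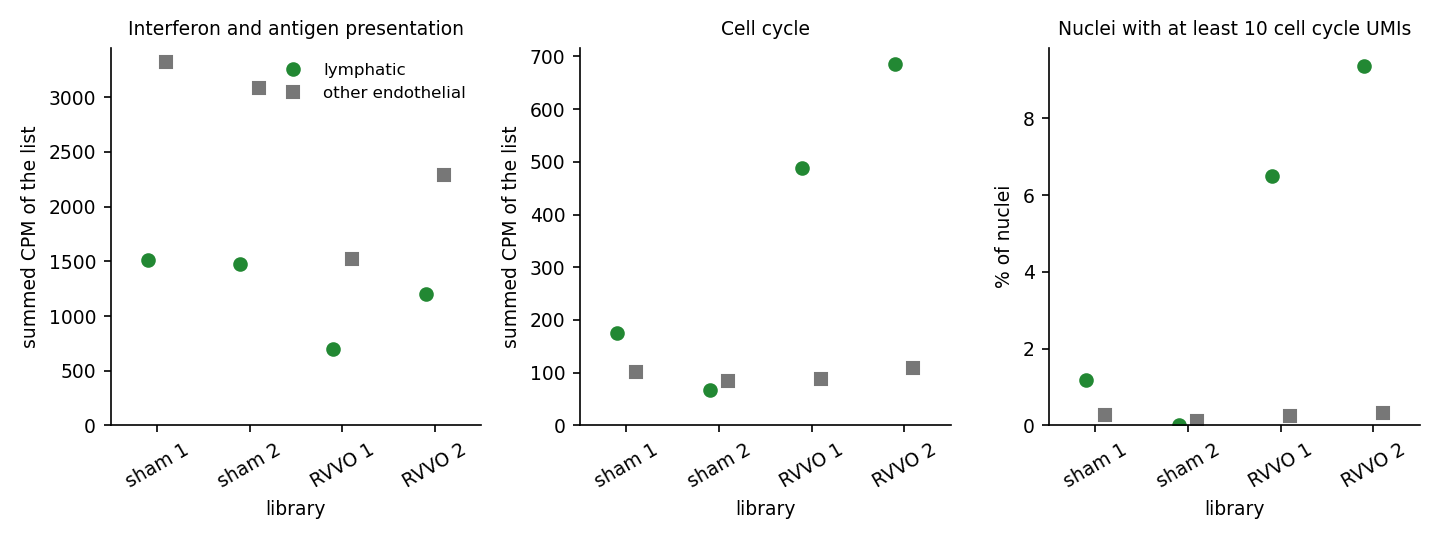
Points give, by library, the summed CPM of the interferon and antigen presentation list (left) and of the cell cycle list (middle), and the percentage of nuclei with at least 10 cell cycle UMIs (right), green for lymphatic and grey for other endothelial nuclei. Interferon transcripts are lower in RVVO in both classes, and cell cycle transcripts are highest in the lymphatic nuclei of RVVO 1 and RVVO 2, at 487 and 686 CPM.

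Whether the difference between RVVO and sham was itself different in lymphatic and other endothelial nuclei was tested as an interaction over 12659 genes. edgeR called 5 (0.0395%) with the library as a block. Nrxn3, a synaptic adhesion gene at chr12:88722876-90334935, was at 338, 259, 239 and 265 CPM in lymphatic nuclei and at 78.2, 38.7, 168 and 205 CPM in the others. The groups overlapped in the first class, and RVVO was the higher in the second, an interaction of -1.89 ± 0.26 (edgeR adjusted p = 9e-06). Within that class Nrxn3 was at 741, 332, 719.9 and 860.4 CPM in endocardial, 219.8, 115, 282 and 409.9 CPM in vein-like and 17.0, 12.2, 42.9 and 53.5 CPM in capillary-type nuclei. The groups overlapped in endocardial nuclei, which were a larger share of the class in RVVO, and RVVO was the higher in capillary-type nuclei. Against capillary-type nuclei alone the interaction was -1.92 and was called (edgeR adjusted p = 0.0016), and against endocardial nuclei alone it was -0.83 and was not (edgeR adjusted p = 1). It was called in 16 of 18 alternative fits, the exceptions being that against endocardial nuclei and that without the block. Myo1d, an unconventional myosin, was at 196, 136, 283 and 382 CPM in lymphatic nuclei, higher in both RVVO libraries, and at 550.4, 631, 454 and 497 CPM in the others, lower in both (1.31 ± 0.26, edgeR adjusted p = 0.019). Of its 304 UMIs in members, 18.4% lay in the 12 cell cycle nuclei, which held 5.71% of all UMIs of members, and without those nuclei the interaction was 1.03 and was not called (edgeR adjusted p = 0.40). Bach2, a transcriptional repressor, was at 383, 479.7, 109 and 214 CPM in lymphatic nuclei, lower in both RVVO libraries, and at 385, 515, 400.1 and 440.1 CPM in the others, where the groups overlapped (-1.35 ± 0.26, edgeR adjusted p = 0.013). Of its UMIs in members, 22.8% lay in the nuclei with glial markers, and 61 in a single nucleus. That nucleus was from sham, since neither RVVO library held that many Bach2 UMIs. How far the difference rests on it was not tested. Without the nuclei with glial markers the interaction was -1.51 and was called (edgeR adjusted p = 0.00019). Bach2 was not called without barcodes of high doublet score, with a Prox1 UMI required or in DESeq2.

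The other 2 calls rest on few nuclei. Kif23, a motor of cell division, was counted in 1, 0, 14 and 16 UMIs of lymphatic nuclei and was at 7.73, 11.3, 7.26 and 8.20 CPM in the others (5.04 ± 1.08, edgeR adjusted p = 0.043). Of these 31 UMIs, 96.8% lay in the 12 cell cycle nuclei, and without those nuclei the interaction, fitted on the 1 UMI left, was -5.76, was not called and gives no direction. Kcnc2, a potassium channel gene, was counted in 15, 1, 0 and 0 UMIs in 4 lymphatic nuclei, 11 of them in a single nucleus, and was at 81.3, 103, 182 and 175 CPM in the others (edgeR adjusted p = 0.0041). Against a floor of 3 counts over the group it was at least 6.04-fold lower in the lymphatic nuclei of RVVO. This bound rests on sham 1, since sham 2 alone, with 1 UMI, gives no fold. Myo1d and Bach2 were each called in 7 of 18 alternative fits, Kcnc2 in 9 of 18 and Kif23 in 6 of 16. None of these 4 genes was called against capillary-type nuclei alone, where the interaction was 1.29 for Myo1d, -1.43 for Bach2 and 4.85 for Kif23, or against endocardial nuclei alone, where Kif23 was not tested. Single libraries decided some of these calls. Kcnc2 was not called without sham 1 (-7.99, a fitted value on 1 UMI that is no measure of size), and Kif23 was not called without sham 1 (11.28, fitted with no UMI left in sham), sham 2 (4.03) or RVVO 2 (4.73). Bach2 was not called without sham 1 (-1.31) or RVVO 1 (-0.94), and Myo1d was not called without sham 2 (1.01) or RVVO 2 (1.16).

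**Figure D5:**
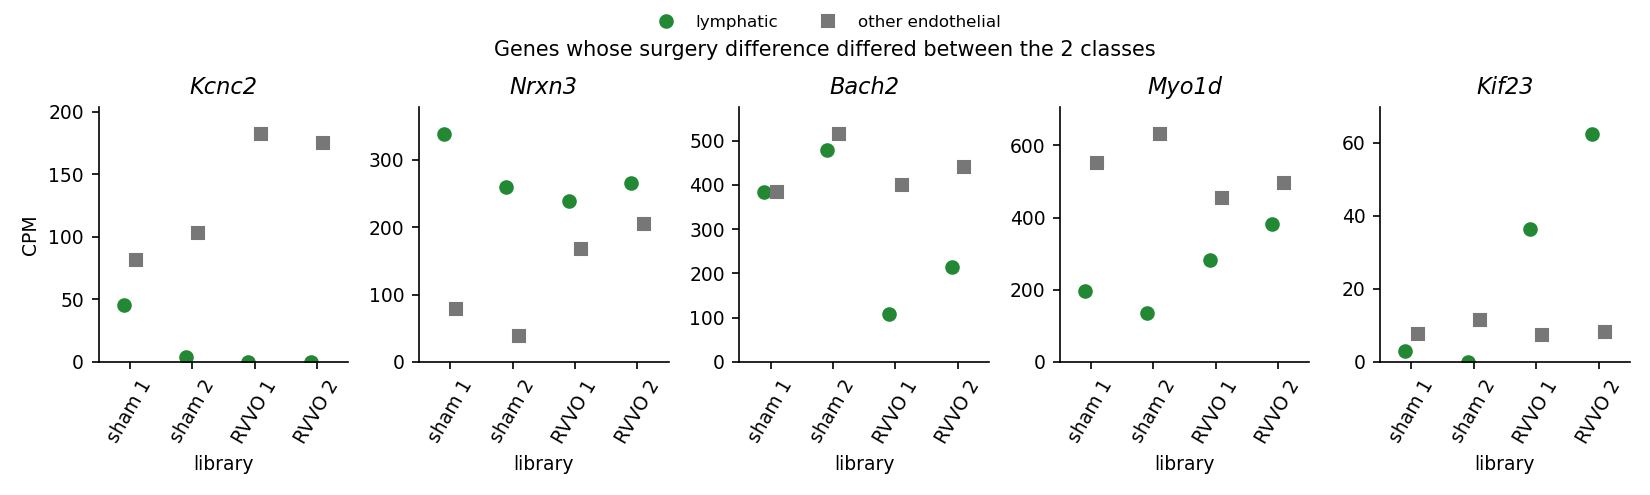
Levels in CPM (vertical axes, each from 0) are shown by library for the 5 genes whose difference between RVVO and sham differed between the classes, green circles for lymphatic and grey squares for other endothelial nuclei. Nrxn3 in other endothelial nuclei goes from 78.2 and 38.7 CPM in sham to 168 and 205 CPM in RVVO, while in lymphatic nuclei its groups overlap. The share of endocardial nuclei among the others is 5.12% and 4.48% in sham and 11.4% and 14.2% in RVVO.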

How the data were processed

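Droplet libraries of single nuclei were made from frozen right ventricles with 10x 3′ v3 chemistry and sequenced on an Illumina instrument. The deposited matrices hold raw counts of UMIs per gene and barcode, and the authors' processing notes name Cell Ranger 3.0.1, STAR, Seurat 3.0.2 and GRCm38 (mm10), while the matrix headers name Cell Ranger 5.0.0. Rows that share a symbol were summed, which gave 27933 symbols from 27998 rows. Members and gene lists were chosen with earlier results of these data known. Scrublet in scanpy 1.11.5 ranked barcodes by doublet score, and the top 0.8% per 1000 barcodes of each library were marked and kept, except in 1 alternative. Counts were summed per library and class, filtered by filterByExpr, scaled by TMM and tested with edgeR 4.0.16 (quasi-likelihood, Benjamini-Hochberg adjustment over all tested genes, threshold 0.05) in R 4.3.3. Class and interaction fits had the library as a block. DESeq2 1.42.0, other filters and scalings, thinning, other rules for members and each library left out were the alternatives. Genes named include abundant and called members of the lists, up to 8 called genes each way for surgery, and all interaction calls. They also include the 15 largest rises and 8 largest falls between classes found in at least 20% of nuclei of the higher class. Some genes named, such as Stat2, were not called in the main fits, and some were chosen after their values were seen. Exact intervals and floors of 3 counts cover counting error only. No 2 libraries agreed within sampling noise (chi-square per degree of freedom 2.06 to 2.61). The fits were tested on simulated data, but the outcome is not given here and no result rests on it. Some genes of the lists are not reported here.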

Additional observations from a re-analysis of the deposited data

Results flagged for a closer look

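For 5 genes, the difference between RVVO and sham differed between lymphatic and other endothelial nuclei in the edgeR interaction test. The interaction, the log2 difference in lymphatic minus that in other endothelial nuclei, was -10.97 for Kcnc2 and -1.89 for Nrxn3, where other endothelial nuclei had the higher level in RVVO. Endocardial nuclei made up 5.12% and 4.48% of that class in sham and 11.4% and 14.2% in RVVO. Against capillary-type nuclei alone Nrxn3 was the only one of the 5 that was called (-1.92), and against endocardial nuclei alone none was, with Kif23 not tested there. The value for Kcnc2 is fitted with 0 UMIs in the lymphatic nuclei of RVVO, of 16 in all members, and is no measure of size; against a floor of 3 counts the gene was at least 6.04-fold lower there, a bound that rests on sham 1, since sham 2 had 1 UMI and alone gives no fold. The interaction was -1.35 for Bach2, with lower levels in the lymphatic nuclei of RVVO and 61 of its UMIs in a single sham nucleus. The interaction was 1.31 for Myo1d, whose classes moved in opposite directions and which had 18.4% of its UMIs in the 12 cell cycle nuclei. It was 5.04 for Kif23, which had 30 of its 31 UMIs in the 12 cell cycle nuclei. The part of sex in these differences was not separable from that of surgery.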

How the results depend on the processing

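The class comparison gave 3009 genes, and 1725 after thinning to 1000 UMIs, where fewer counts remain, or 1758 against endocardial nuclei alone, of 7775 tested in place of 12645. Without TMM its split was 1592 higher and 1397 lower in place of 1348 and 1661. The 5 genes called between RVVO and sham became 79 with no filter, 9 with a minimum count of 5, 9 in nuclei with Prox1, and 21 to 69 with 1 library left out, where the lone sample is assumed to vary like the others. After seeing the data, nuclei with glial markers (8 called), cell cycle genes (11) or either (10) were left out. The replicate block gave 5. Replicate numbers share only a number (r = -0.163 over 5688 genes), and a crossed pairing gave 63. DESeq2 called 7, with Ddx3y lost. The 5 interaction calls became 1 in DESeq2, 3 without TMM, 13 with no filter, 13 with a minimum count of 5, 3 after thinning, 19 with Prox1, 25 with at least 5 marker UMIs, 1 without high doublet scores, 16 without glial markers, 2 without cell cycle nuclei, 11 to 20 with 1 library left out, 1 against capillary-type and 0 against endocardial nuclei alone (343 at an unadjusted p under 0.05), both chosen after seeing the data, and 0 with no replicate block, where edgeR had 607 genes at an unadjusted p under 0.05 and DESeq2 with the block 1 call. Kif23 reversed to -5.76 without cell cycle nuclei and -5.94 without these and glial nuclei, values fitted on 1 UMI that give no direction. The share of lymphatic nuclei ranged from -0.0779 to 0.349 percentage points (RVVO minus sham) with 1 library left out, reversing without RVVO 1. The cause of the other changes was not tested. With 64 to 84 nuclei a library, genes of few UMIs were not testable.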
